A study of Homo sapiens with 50 samples.

Results

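The epithelial and mesenchymal identity genes described here are CDH1, EPCAM, CDH2, VIM, FN1, SNAI1, SNAI2, TWIST1, ZEB1 and ZEB2. Array probes were assigned to these 10 genes by gene name, and every probe carrying one of the names was kept. This gave 14 features for 10 genes, of 34127 features on the array, with 2 features each for CDH2, TWIST1, ZEB1 and ZEB2. The array was an Agilent whole human genome array hybridized with RNA labeled in 1 colour, and a feature is 1 probe sequence. The arrays came from H1299, an established human non-small cell lung carcinoma line, and from H1299shRAD9.

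H1299shRAD9 is H1299 infected with the pSUPER.retro.puro viral vector, which expresses a short hairpin RNA against RAD9, a protein that helps sense DNA damage. H1299 carries no such vector, so the vector and the hairpin cannot be told apart in any difference between the lines. According to the methods, 2 stable transfectants were used, and the labels do not say which sample came from which, so that n = 5 counts arrays and not independently derived lines. Cells were grown on concentric Mylar dishes and harvested 4 h after 0 Gy (sham, CTL) or 1 Gy of 4He ions. DBP were directly irradiated cells whose unirradiated neighbours had a micronucleus frequency well above background, and BP were those bystander neighbours. DBN were directly irradiated cells whose neighbours stayed at the background frequency of micronuclei, and BN were those neighbours. According to the methods, samples of all groups, CTL included, were chosen by their micronucleus frequency, so that they were selected on a measured outcome. Each line had 5 arrays in each of these 5 groups, which made 10 groups and 50 arrays.

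Epithelial cells hold to each other through E-cadherin (CDH1) and carry the adhesion protein EpCAM (EPCAM). In the epithelial to mesenchymal transition, a program of development, wound healing and tumor spread, cells lose these proteins and gain N-cadherin (CDH2), the intermediate filament vimentin (VIM) and the matrix protein fibronectin (FN1). The transcription factors SNAI1, SNAI2, TWIST1, ZEB1 and ZEB2 drive that program, and the SNAI and ZEB factors bind the CDH1 promoter and repress it.

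All values below are log2 of the processed intensity relative to the median feature of the same array, so that 0 is the median feature. A level of one feature cannot be compared with that of another, because probes differ in how well they bind. Probe sequences are shown for 4 features on which the description turns, since what each one reports depends on the stretch of transcript it pairs with. They are given 5′ to 3′ in the sense of the transcript, in lower case because no base in them is singled out, with hg19 positions from the array annotation.
VIM, A_23_P161190, chr10:17278347-17279256, plus strand: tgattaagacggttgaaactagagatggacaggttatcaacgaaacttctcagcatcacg
FN1, A_24_P334130, chr2:216288217-216288895, minus strand: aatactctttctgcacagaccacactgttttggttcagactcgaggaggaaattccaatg
TWIST1, A_33_P3414591, chr7:19156462-19156521, minus strand: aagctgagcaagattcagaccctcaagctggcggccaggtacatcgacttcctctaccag
ZEB2, A_33_P3243832, chr2:145182363-145182422, minus strand: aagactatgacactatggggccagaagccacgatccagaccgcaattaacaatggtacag
Each of the 4 keeps at least 1 reading frame with no stop codon. Every probe has 60 bases, but the VIM probe spans 910 bases of the genome and the FN1 probe 679, so each is split over an intron. The ZEB2 probe lies 36102 bases from the other ZEB2 probe, A_23_P142560 (chr2:145146261-145146320).

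On the level of whole arrays, 5 H1299 arrays stood apart from the rest. The SD of their features about the feature medians was 0.612 to 0.874, against 0.261 to 0.496 for the other 45 arrays. They were DBN replicates 1 and 2, DBP replicates 1 and 2, and BP replicate 2. Between 55.1% and 83.2% of features were well above background on an array. The arrays lay on 13 slides scanned on 6 days, and 0 slides and 0 scan days held CTL arrays of both lines. Within DBP, DBN and BN too, 0 slides held both lines, and within BP 1 slide did. H1299 arrays were scanned on days 4 to 6. H1299shRAD9 arrays were scanned on days 1 to 3, except DBN replicate 5 (day 4) and BP replicate 1 (day 6). In CTL, line therefore cannot be told apart from slide or scan day, and in the other groups it largely cannot. RAD9A, the targeted gene, had a level of 3.65 ± 0.19 in H1299shRAD9 CTL and 4.01 ± 0.13 in H1299 CTL (mean ± SD, n = 5 each; exact permutation test, 2-sided, p = 0.0159), with overlapping ranges of 3.34 to 3.85 and 3.82 to 4.18. The RAD9A ranges of the lines overlapped in 5 of 5 groups. Over the 25 arrays of each line RAD9A lay at 3.34 to 4.26 in H1299shRAD9 and 2.90 to 4.58 in H1299. NKX2-1, a lung lineage factor, was well above background on 25 of 25 H1299 arrays and 0 of 25 H1299shRAD9 arrays. Of the other lung epithelial markers, SFTPA1 was well above background on 0 of 50 arrays and SCGB1A1 on 50 of 50.

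**Figure D1:**
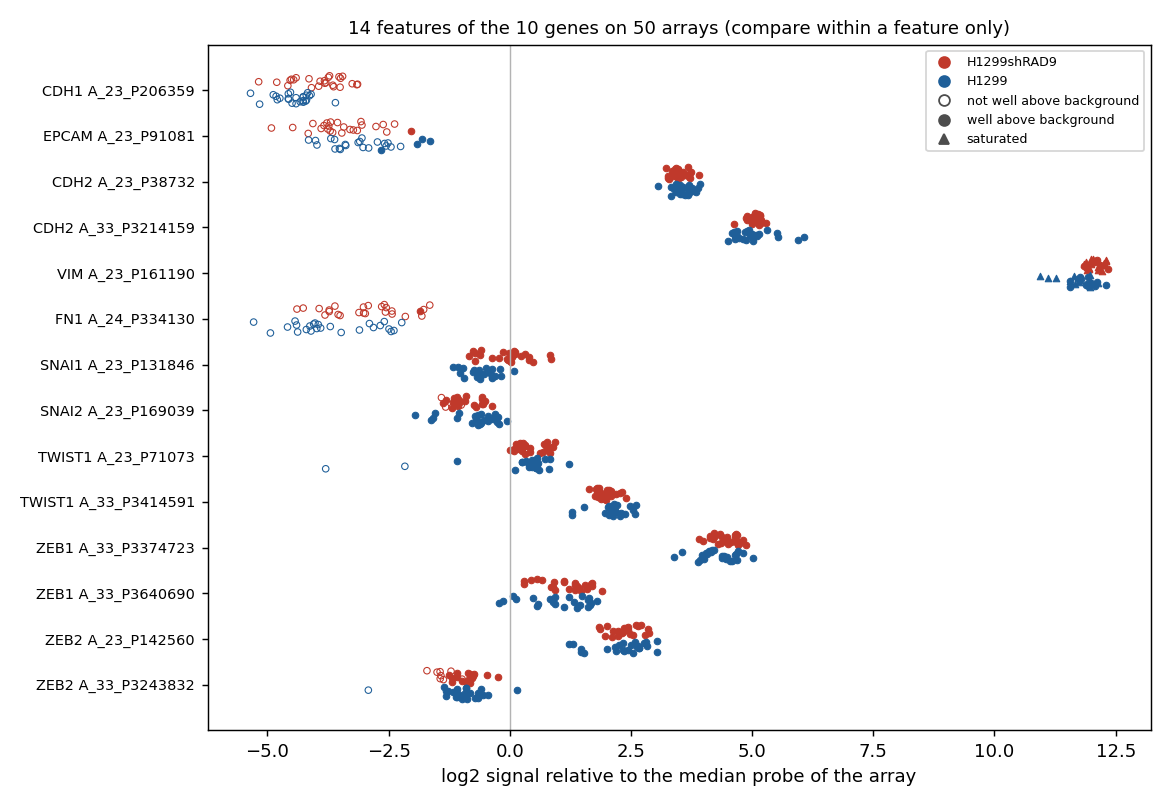
Log2 signal relative to the median feature of the array (x axis) for the 14 features (y axis), 1 point for each of 50 arrays, red for H1299shRAD9 and blue for H1299. Open points were not well above background and triangles were saturated. CDH1 is open on all 50 arrays, while both CDH2 features and VIM are filled on all 50.

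The epithelial pair was at or below the background of the array. The CDH1 feature (chr16:68869214-68869273), printed in 10 spots, was well above background on 0 of 50 arrays, at −5.35 to −3.14, with a median of −4.24. The EPCAM feature (chr2:47613894-47613953) was well above background on 5 of 50 arrays, at −4.92 to −1.65. Those 5 arrays were 1 in H1299shRAD9 BP and 1 each in H1299 CTL, DBN, BN and BP. Neither feature has a usable level or difference, and a signal under background gives only a bound for that probe. Both lines nevertheless had signal for simple epithelial keratins. KRT7, KRT8 and KRT18 were well above background on all 50 arrays.

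Among the mesenchymal structural genes, the N-cadherin gene CDH2 was read clearly and evenly in every group. Its feature A_23_P38732 (chr18:25532081-25532140) was well above background on 50 of 50 arrays, at 3.07 to 3.92. The group means lay between 3.44 and 3.69, a range of 1.19-fold. The feature A_33_P3214159 (chr18:25530936-25530995) was at 4.50 to 6.07, with group means of 4.90 to 5.24. The 2 highest of its values, 6.07 and 5.95, came from H1299 DBP replicate 2 and BP replicate 2, which are among the arrays that stood apart. No difference of either CDH2 feature passed the test. In unirradiated cells H1299shRAD9 minus H1299 was −0.21 ± 0.12 (SE; limma, adjusted p = 0.249) on the first and 0.17 ± 0.12 (adjusted p = 0.331) on the second, opposite in sign.

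VIM was so bright that it left the range of the scanner. It was well above background on all 50 arrays, at 10.95 to 12.34, and marked saturated on 31 of them, 19 of 25 in H1299shRAD9 and 12 of 25 in H1299. In each group 1 to 4 of the 5 arrays were saturated. Signals marked saturated were 642872 to 737803 units in H1299shRAD9 and 636127 to 719783 in H1299, so that these arrays give a lower bound. In unirradiated H1299shRAD9 the values were 11.99, 12.04, 12.12, 12.31 and 12.07, and in unirradiated H1299 they were 11.98, 11.65, 10.95, 11.76 and 11.94. Of these arrays 3 of 5 were saturated in each group, so the order of the values cannot be read, and the difference of 0.45 ± 0.18 (limma, adjusted p = 0.1) was not called. Before the array median was subtracted, the signals were 557520 to 715109 units in H1299shRAD9 and 590997 to 678365 in H1299. The medians of the arrays themselves were 130 to 175 units and 163 to 344 units, and the lowest VIM value, 10.95, was on the array with the highest median. FN1 was well above background on 1 of 50 arrays (H1299shRAD9 BN replicate 3), at −5.28 to −1.65. Its single probe pairs with 1 exon junction, so transcripts that skip the junction are not read, and no level of FN1 is given.

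A difference is called here if limma gave p under 0.005 between lines, or under 0.006 for an exposure or an interaction, together with a Benjamini-Hochberg adjusted p under 0.10. Of the 14 features, 11 passed the filter on background, and 6 of these also varied by at least 1.3-fold from their median on at least 20% of arrays and were tested among 12186 features. They were SNAI1, SNAI2 and both features of ZEB1 and of ZEB2. The other 5, CDH2 (2 features), VIM and TWIST1 (2 features), were tested among the 20079 features that passed the background filter.

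Between the unirradiated lines, 0 of the 6 were called, against 15.5% of all features, and 2 of the 6 had an unadjusted p under 0.05. Among the other 5, 1 was called, against 13% of all features (6.07% lower in H1299shRAD9). In the exposed groups the lines were compared in 24 tests of the 6 features, 6 in each of 4 groups, and 0 were called. Of all features, 6.79% were called in DBP, 7.52% in BP, 8.41% in BN and 5.02% in DBN. The other 5 features also gave 0 calls there, against 5.39% of the features tested with them in DBP, 6.57% in BP, 7.52% in BN and 2.47% in DBN.

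SNAI1, which encodes the founding zinc finger repressor of CDH1, was read on all 50 arrays by A_23_P131846 (chr20:48605170-48605229). In unirradiated H1299shRAD9 it was at −0.60, −0.75, 0.08, −0.13 and 0.11, and in unirradiated H1299 at −1.17, −1.06, −0.97, −0.49 and −0.20. The groups overlapped and the H1299shRAD9 mean was higher by 0.52 ± 0.23, or 1.44-fold (adjusted p = 0.114). The H1299shRAD9 mean was also above the H1299 mean by 0.58 in DBP (adjusted p = 0.161), 0.54 in BP (adjusted p = 0.153), 0.52 in DBN (adjusted p = 0.301) and 0.47 in BN (adjusted p = 0.212). The difference thus had the same sign in 5 of 5 groups that share no array, and passed the test in 0 of them. In all of them the lines were also largely split by slide and scan day, so the 5 are not independent repeats. On the 1 slide that held BP arrays of both lines, with 1 array each, SNAI1 was higher by 0.57 in H1299shRAD9. Every other member feature was also higher there, except ZEB1 A_33_P3640690 (−0.17). CDH2 A_33_P3214159 was higher by 0.78 and VIM by 0.77. SNAI2 was higher by 0.29 on that slide, although over all BP arrays its H1299shRAD9 mean was lower (−0.38). This slide therefore cannot single out SNAI1. Without H1299shRAD9 BP replicate 2 the SNAI1 difference in BP was called (0.71, adjusted p = 0.0751).

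The spread of SNAI1 within H1299shRAD9 followed the replicate number. In each of the 5 groups, replicates 1 and 2 lay below replicates 3 to 5, with −0.83 to −0.01 on 10 arrays against −0.13 to 0.85 on 15 arrays. In H1299 this held in 1 of 5 groups. Of 20079 features, 1796 had replicates 1 and 2 below the others in all 5 H1299shRAD9 groups and 1041 had them above, against 114 and 45 in H1299. SNAI2 had them above the others in 4 of 5 H1299shRAD9 groups. The replicate number also went partly with slide and scan day. In H1299shRAD9 CTL and DBP, replicates 1 and 2 shared a slide scanned on day 1, and replicates 3 to 5 were scanned on days 2 and 3. In DBN and BN, however, replicate 2 was scanned on day 2, and BP replicate 1 on day 6. The labels do not say whether the replicate number follows the 2 stable transfectants. Neither transfectant nor slide and scan day was tested for this split.

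After exposure SNAI1 stood above CTL in each H1299shRAD9 group, with 0.37 ± 0.12 in DBP (higher in 5 of 5 pairs, adjusted p = 0.198) and 0.36 ± 0.14 in DBN (5 of 5 pairs, adjusted p = 0.231). BP gave 0.21 and BN 0.10. In H1299 the SNAI1 differences were 0.31 in DBP and 0.37 in DBN (5 of 5 pairs each), 0.19 in BP (4 of 5 pairs) and 0.15 in BN (3 of 5 pairs). The differences of a line share the same 5 CTL arrays, so a low CTL level would enter all of them. No SNAI1 difference was called in either line, and the interaction, which tests whether the exposure difference itself differs between lines, was between −0.05 and 0.06.

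**Figure D2:**
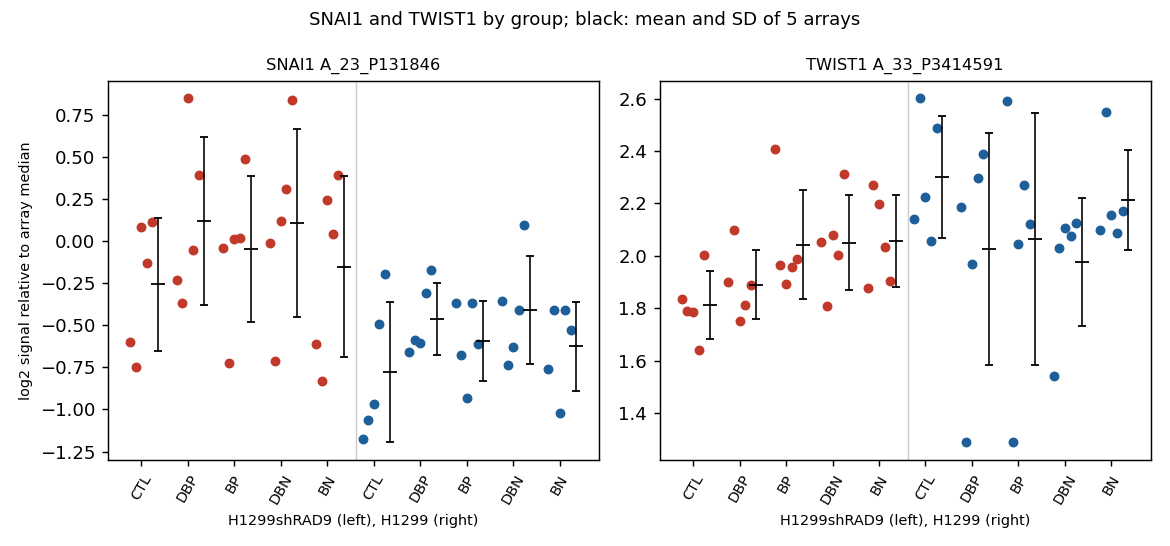
Log2 signal relative to the array median (y axis) of SNAI1 (A_23_P131846) and TWIST1 (A_33_P3414591) in the 10 groups (x axis), 1 point for each array in the order of replicates 1 to 5, with the mean and SD of 5 arrays in black. The SNAI1 means of H1299shRAD9 (−0.26 to 0.12) are above those of H1299 (−0.78 to −0.41), and TWIST1 is separated between lines in CTL.

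SNAI2, the relative of SNAI1 that encodes the repressor Slug, was close to background. Its feature on chromosome 8, A_23_P169039, was well above background on 46 of 50 arrays, at −1.95 to −0.06. H1299 had it on 25 of 25 arrays and H1299shRAD9 on the other 21. The H1299shRAD9 mean was below the H1299 mean in all 5 groups, by −0.18 in DBP to −0.38 in BP, with adjusted p between 0.281 and 0.711, and none was called. The largest exposure difference was 0.26 in H1299 BP (adjusted p = 0.799).

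TWIST1, a basic helix-loop-helix factor, was the 1 member whose level was called between the unirradiated lines, on 1 of its 2 features. On A_33_P3414591, unirradiated H1299shRAD9 had 1.84, 1.79, 1.78, 1.64 and 2.0, and unirradiated H1299 had 2.14, 2.60, 2.22, 2.06 and 2.49. The groups did not overlap, which held in this direction for 6.09% of features. The H1299shRAD9 mean was lower by −0.49 ± 0.13 (limma, adjusted p = 0.0262). Leaving out each array in turn gave −0.55 to −0.42 and the call was lost in 6 of 10 cases, without H1299shRAD9 replicate 1, 2, 3 or 4 or without H1299 replicate 2 or 5. Over all alternatives, 11 of 19 called it, with adjusted p of 0.017 to 0.0816. With slide as a random block it was −0.47 and not called.

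TWIST1 was not called between lines in the other groups or on the other probe. On A_33_P3414591 the difference was −0.14 in DBP, −0.02 in BP, −0.16 in BN and 0.07 in DBN, with adjusted p of 0.482 or more. The interactions, which compare these differences with that in CTL, were 0.33 to 0.57 and not called (adjusted p of 0.47 or more). The other TWIST1 feature, A_23_P71073 (chr7:19155645-19155704), differed between the unirradiated lines by −0.16 ± 0.16 (adjusted p = 0.516). It was well above background on 48 of 50 arrays, and its values correlated with those of A_33_P3414591 with r = 0.60 over 50 arrays. The replicate 2 arrays of the 4 exposed H1299 groups set its extremes, with −3.80 in BP, −2.16 in DBP, −1.09 in DBN and 1.22 in BN, and 3 of these 4 arrays are among those that stood apart. The H1299 differences from CTL were −0.97 ± 0.58 in BP (adjusted p = 0.823), −0.68 ± 0.38 in DBP (adjusted p = 0.795) and −0.60 ± 0.27 in DBN (adjusted p = 1), each of which includes 1 of these arrays. On A_33_P3414591 the H1299shRAD9 differences from CTL were 0.08 in DBP, 0.23 in BP, 0.24 in BN and 0.24 in DBN, and none was called.

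In H1299shRAD9, ZEB1 was higher than CTL in BP and in DBN on 1 of its 2 features, and no other member gene was called after exposure. ZEB1 encodes a zinc finger and homeodomain repressor of CDH1. On A_33_P3640690 (chr10:31816261-31816320), H1299shRAD9 CTL had 0.56, 0.43, 0.67, 0.29 and 1.12. BP had 1.23, 0.93, 1.34, 1.46 and 1.90. DBN had 0.92, 1.11, 1.34, 1.69 and 1.69. The exposed groups overlapped CTL, through CTL replicate 5, but stood above the CTL array of the same number in 5 of 5 pairs each. On this feature too, replicates 1 and 2 lay below replicates 3 to 5 in 4 of 5 H1299shRAD9 groups, all but CTL. In H1299 this held in 2 of 5 groups.

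The BP difference was 0.76 ± 0.12 (1.69-fold, limma, adjusted p = 0.0446) and the DBN difference 0.74 ± 0.15 (1.67-fold, adjusted p = 0.0646). DBP, with 0.89, 0.84, 1.44, 1.59 and 1.59, was higher than CTL by 0.66 ± 0.15 (5 of 5 pairs, adjusted p = 0.114), and BN, with 0.29, 1.35, 1.56, 1.69 and 1.39, by 0.64 ± 0.23 (4 of 5 pairs, adjusted p = 0.272). These 2 were not called. The 4 differences share the same 5 CTL arrays, so a low CTL level would enter all of them, and 0.927% of all features had all 4 group means at least 0.6 above CTL. Of the 6 features, 2 of 24 tests were called in H1299shRAD9, against 1.77% of all features in DBP, 2.33% in BP (2.17% higher), 4.78% in DBN (3.41% higher) and 0.0492% in BN. The 5 features tested on the background filter alone gave 0 calls, against 1.3% of the features tested with them in DBP, 1.61% in BP, 0.0299% in BN and 2.8% in DBN.

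In H1299 no difference of the ZEB1 feature A_33_P3640690 from CTL was called. H1299 CTL had 0.06, 1.49, 1.23, 0.93 and 1.63, a wider range than H1299shRAD9 CTL. The differences were 0.04 in BN, 0.15 in BP, −0.28 in DBN and −0.18 in DBP, with adjusted p of 0.837 or more. Of the 6 features, 0 of 24 tests were called in H1299, against 0.0574% of all features in DBP, 0.0164% in DBN and 0% in BP and BN (0.0349% and 0.00996% in DBP and DBN for the other 5, also with 0 calls). Of these 24 tests, 1 had an unadjusted p under 0.05. The interaction between line and exposure was 1.02 ± 0.33 in DBN (adjusted p = 0.245), 0.84 ± 0.27 in DBP (adjusted p = 0.569), 0.60 ± 0.35 in BP (adjusted p = 0.709) and 0.60 ± 0.28 in BN (adjusted p = 0.666), and none was called. Over the 6 features 0 of 24 interactions were called and 3 had an unadjusted p under 0.05, against 0% of all features called (0.0149% in DBN on the background filter alone). A difference between the lines in this response was therefore not shown.

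The order of the group means of this feature ran from 0.62 in H1299shRAD9 CTL through 0.79, 0.89, 1.07, 1.11 and 1.22 in H1299 DBN, DBP, CTL, BN and BP to 1.26, 1.27, 1.35 and 1.37 in H1299shRAD9 BN, DBP, DBN and BP. Neighbours in this order differed by less than the SD within the groups (0.32 to 0.79). Only part of the comparison could be made on the same slide. There BP was above CTL by 0.98 and 0.78 on 2 slides, DBP by 1.11 and 0.47 on 2, and DBN by 0.42 on 1, while BN gave −0.20 and 0.27 on 2. With slide as a block beside the replicate, BP gave 0.97 and DBN 0.36. These rest on the pairs of 1 replicate number that lay on 1 slide, which were 2 for BP (1.17 and 0.78) and 1 for DBN, and are given without a test. Without the replicate block the differences were the same and not called, with adjusted p of 0.448 in BP and 0.147 in DBN. The BP call was lost on leaving out replicate 1, 2, 4 or 5 and the DBN call on leaving out 1, 2, 3 or 4, while the differences stayed at 0.65 to 0.82 and 0.57 to 0.83.

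No difference was called on the other ZEB1 feature. A_33_P3374723 (chr10:31818063-31818122), which starts 1802 bases further along the gene and holds the polyadenylation hexamer AATAAA from base 44 of the probe, had H1299shRAD9 group means of 4.34 to 4.55. Its differences from CTL in H1299shRAD9 were −0.03 in DBP, 0.05 in BP, −0.17 in BN and −0.13 in DBN, with adjusted p of 0.568 or more. Over 50 arrays the 2 ZEB1 features correlated with r = 0.17, a description over arrays that share groups and slides. The hexamer, searched on the transcript strand, was in 7.67% of the probes of the array, and A_33_P3640690 did not hold it.

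**Figure D3:**
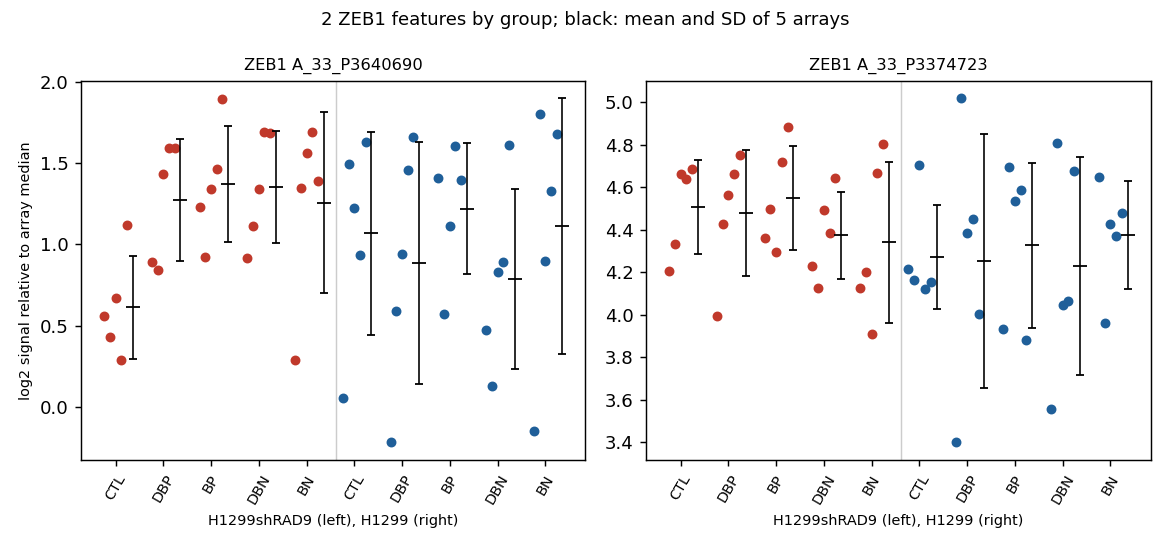
Log2 signal relative to the array median (y axis) of the 2 ZEB1 features in the 10 groups (x axis), 1 point for each array in the order of replicates 1 to 5, with the mean and SD of 5 arrays in black. On A_33_P3640690 the H1299shRAD9 mean is 0.62 in CTL and 1.26 to 1.37 in the exposed groups, and on A_33_P3374723 it is 4.34 to 4.55 in all 5.

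No ZEB2 difference was called after exposure, and in H1299shRAD9 its 2 features differed from CTL with opposite signs. ZEB2 encodes the sister factor of ZEB1. The probe printed above, A_33_P3243832, read near background and was well above it on 41 of 50 arrays. In H1299shRAD9 it was so on 1 of 5 arrays in CTL, 2 in DBP, 5 in BP, 4 in BN and 5 in DBN, whereas in H1299 it was so on 24 of 25. H1299shRAD9 CTL had −1.71, −1.21, −1.44, −1.5 and −1.08, and DBN had −0.87, −0.82, −0.74, −0.46 and −1.25. Compared with CTL, DBN was higher by 0.56 ± 0.17 (4 of 5 pairs, adjusted p = 0.157), BN by 0.53 ± 0.16 (5 of 5 pairs, adjusted p = 0.214), BP by 0.44 ± 0.13 (5 of 5 pairs, adjusted p = 0.167) and DBP by 0.22 ± 0.13 (4 of 5 pairs, adjusted p = 0.466). None was called. Of the 5 CTL arrays, 4 give only a bound for this feature. In H1299 its differences from CTL were 0.10 in DBP, 0.09 in BP, 0.04 in BN and −0.34 in DBN. Against unirradiated H1299, unirradiated H1299shRAD9 was lower by −0.42 ± 0.17 (adjusted p = 0.0903), and the unadjusted p missed its threshold.

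The ZEB2 feature A_23_P142560 was well above background on all 50 arrays and its differences from CTL were −0.03 in DBP, −0.15 in BP, −0.17 in BN and −0.22 in DBN of H1299shRAD9. In H1299 it was lower than CTL by −0.58 ± 0.22 in DBP (adjusted p = 0.746), −0.55 ± 0.25 in BP and −0.69 ± 0.33 in DBN, and by −0.15 in BN. The lowest H1299 values, 1.21 and 1.3 in DBN and 1.47 in DBP and 1.48 in BP, were on arrays that stood apart. The 2 ZEB2 features correlated with r = −0.16 over 50 arrays and r = −0.50 over the 25 H1299shRAD9 arrays.

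**Figure D4:**
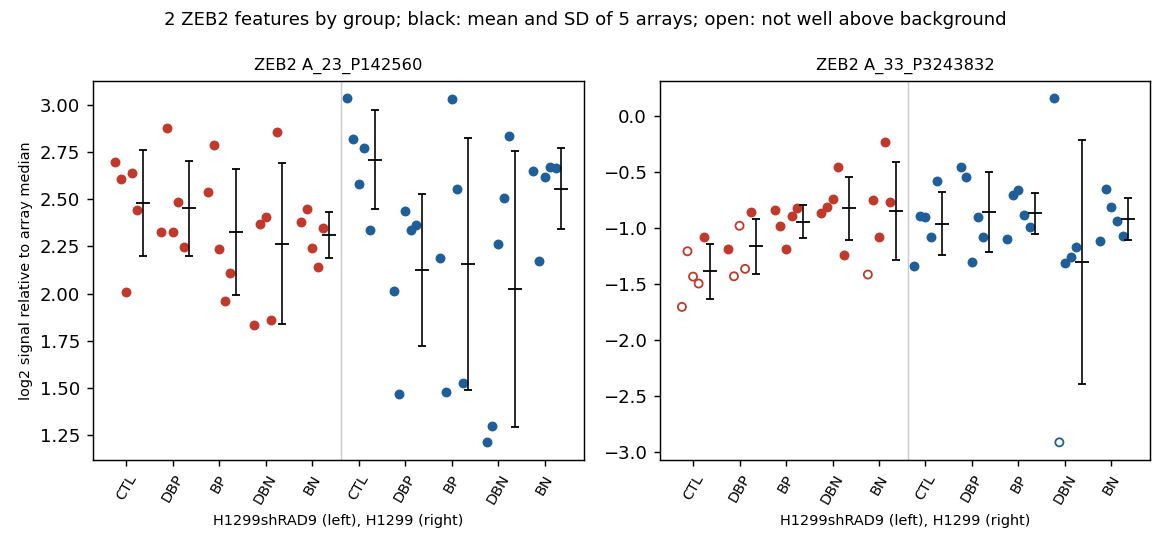
Log2 signal relative to the array median (y axis) of the 2 ZEB2 features in the 10 groups (x axis), 1 point for each array in the order of replicates 1 to 5, with the mean and SD of 5 arrays in black and open points not well above background. On A_33_P3243832 the H1299shRAD9 CTL mean is −1.39 with 1 of 5 arrays well above background, and the DBN mean is −0.83 with 5 of 5.

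**Figure D5:**
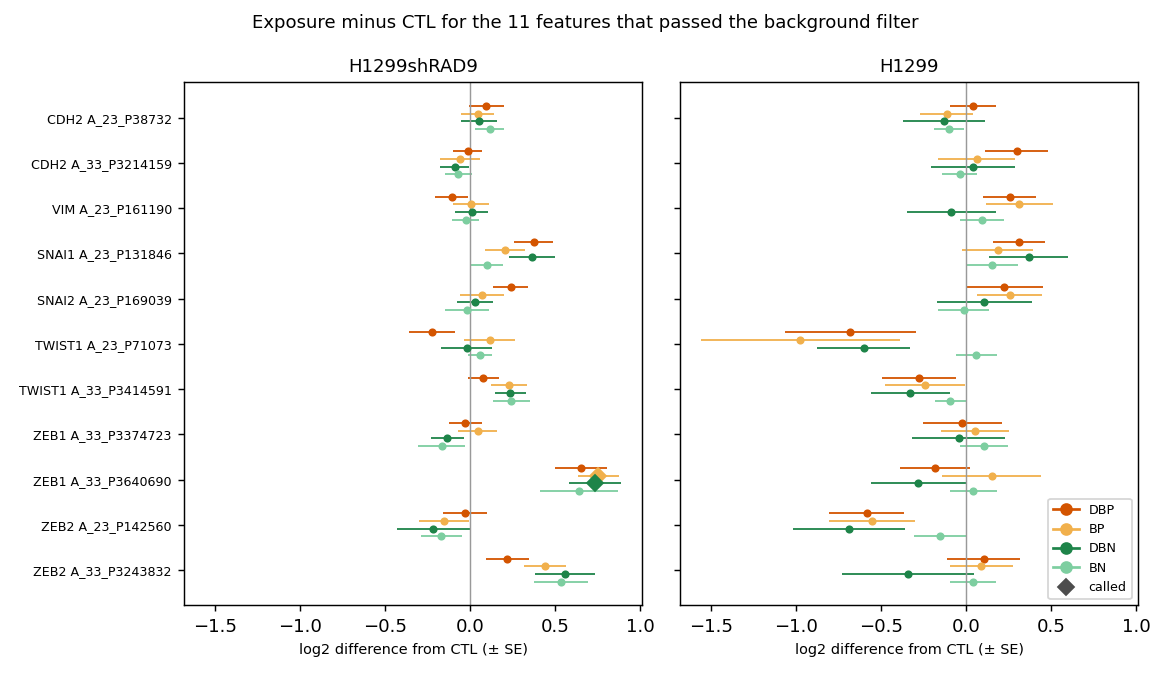
Log2 difference from CTL with its SE (x axis) for the 11 features that passed the background filter (y axis), by exposure group, in H1299shRAD9 (left) and H1299 (right). The 2 large diamonds, BP at 0.76 and DBN at 0.74 for ZEB1 A_33_P3640690 in H1299shRAD9, are the differences that were called.

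Related gene lists, chosen by role and tested on the feature of each gene with the highest signal, are given by their counts beside the share of all features called, with no test of the list. Of 38 genes for epithelial junctions, keratins and surface proteins, 22 were well above background on all 50 arrays and 4 on none, and of 45 for mesenchymal matrix and cytoskeleton, 27 were and 1 was on none. Between the unirradiated lines, 5 of 21 tested epithelial genes were called (23.8%, against 15.5% of all features). CLDN3, a tight junction protein, fell by 1.28 and JUP, the junction protein plakoglobin, by 1.12, while MARVELD2 rose by 0.88 and EVPL by 0.67. The median difference of these 21 was −0.34, against 0.10 over all features.

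Of 25 mesenchymal genes tested, 5 were called (20%, against 15.5%), among them FBLN1 (−1.29), COL6A2 (−1.11) and ACTA2 (−0.74), which were lower, and THBS1 (1.43), which was higher, and the median was −0.11. Genes on both lists thus moved both ways. Of 15 other transcription factors of the transition, 3 were called (20%, against 15.5%), and all 3 were lower in H1299shRAD9. PRRX2, a paired homeobox factor, differed by −2.61, SOX4 by −1.53 and TWIST2, the relative of TWIST1, by −1.21. These 3 were lower and called in the other 4 line comparisons as well, as were FBLN1, COL6A2 and JUP, and THBS1 was higher in all 5. The split of the lines by slide and scan day runs through all 5 as well, so these repeats do not separate line from slide or scan day. None of 3 epithelial regulators, 4 catenins and cadherin linkers or 3 corepressors was called between the unirradiated lines.

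After exposure, 0 of 21 epithelial and 0 of 25 mesenchymal genes were called in any of the 8 comparisons, where 0% to 4.78% of all features were. The list genes that were called were in H1299shRAD9. In DBP, 1 of 3 epithelial regulators and 3 of 15 other transcription factors were called, against 1.77% of all features. KLF4 rose there by 0.51 (limma, adjusted p = 0.0956), with an SD of 0.83 in DBP and 0.89 in CTL. The inhibitors of helix-loop-helix factors ID1, ID2 and ID3 fell there by 0.58, 0.55 and 0.62 (adjusted p = 0.0674, 0.0935 and 0.0538). In DBN, 1 of the 15 factors was called, against 4.78% of all features. It was SOX4, which fell by 1.39 (adjusted p = 0.0697). SOX4 was well above background on 3 of 5 of these DBN arrays and 4 of 5 CTL arrays, with an SD of 1.45 and 1.06, and on 15 of 25 H1299shRAD9 arrays in all, so that its differences, between the lines too, include arrays that give only a bound.

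The features most like a member over the 10 group means are given for the 3 member features whose means ranged most among those that passed both filters. They are a description over 10 points that share lines and arrays. SNAI1 was most like ZFP36 (r = 0.98) and COL4A1 (r = 0.96). ZEB1 A_33_P3640690 was most like PALLD (r = 0.97) and KIAA1033 (r = 0.96). ZEB2 A_23_P142560 was most like PHACTR2 and CDK2 (r = 0.93 each).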

How the data were processed

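The deposited files are 1 scanner output for each of 50 arrays and a table of the authors' processed values. Per the file headers, the deposited processed intensity had its background subtracted and was corrected for a trend over the array. The authors' table holds log2 values of 9502 features and served as an alternative. It holds 5 of the 14 features, and its columns, with medians of 8.86 to 9.30, follow the log2 scanner values (r of 0.999 to 1), with the direction unchanged.

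Here, log2 of the processed intensity minus the array median was averaged over the spots of a probe, without outlier spots. Features were left out when at least 25% of arrays marked them as an outlier or as too close to background (20079 kept), and 12186 also varied 1.3-fold from their median on 20% of arrays. Groups were compared with limma 3.58.1 in R 4.3.3. Lines were compared unpaired, and exposures with the replicate number as a block, as the methods used matched samples. In the pairing check, deviations of same-numbered arrays correlated with a lowest value of 0.22 to 0.37 in H1299shRAD9, and of −0.21 to 0.27 in H1299. Of 5 CTL arrays of H1299shRAD9, those most correlated with the exposed array of their own number were 2 for DBP, 3 for BP, 2 for DBN and 0 for BN. In H1299 these were 5, 2, 1 and 4. The mean over same-numbered arrays was 0.49 to 0.54 in H1299shRAD9, against −0.13 to −0.12 over other pairs. In H1299 it was 0.14 (BP) to 0.43 (BN), with 0.23 for DBN, against −0.10 to −0.03 over other pairs. On average, same-numbered arrays were thus more alike than other pairs in both lines. Matching of single dishes was not shown in H1299shRAD9, nor for BP and DBN of H1299. The code was tested on simulated data. Probe positions are hg19. All members are named. Of the lists, up to 3 genes each way called between the unirradiated lines, and any called after exposure, are named. Some genes of the lists are counted but not reported here by name. The members and lists were chosen with earlier results of these data known. Signal over background and the number of arrays limit precision.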

Additional observations from a re-analysis of the deposited data

Results flagged for a closer look

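Of 110 combinations of a feature and a group of 5 arrays, 11 had 1 array farther from the others than the Dixon ratio of 0.71 allows, where chance would mark about 5%. Of these, 8 were in H1299 replicates 1 and 2. They were TWIST1 A_23_P71073 in replicate 2 of H1299 BP (−3.80), DBP (−2.16), DBN (−1.09) and BN (1.22), TWIST1 A_33_P3414591 in H1299 DBN replicate 1 (1.54) and BN replicate 2 (2.55), SNAI2 in H1299 DBN replicate 1 (−1.95) and ZEB2 A_23_P142560 in H1299 BN replicate 2 (2.17). Of these 8 values, 5 are on arrays that stood apart over all features, and the other 3 are on H1299 BN replicate 2. The remaining 3 were ZEB1 A_33_P3374723 in H1299 CTL replicate 3 (4.70), TWIST1 A_33_P3414591 in H1299shRAD9 BP replicate 1 (2.41) and ZEB1 A_33_P3640690 in H1299shRAD9 BN replicate 1 (0.29).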

How the results depend on the processing

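Counts of called features were recomputed under the alternatives. In unirradiated lines 0 became 1 with the authors' values, without the 1.3-fold criterion and with no filter (TWIST1 A_33_P3414591 each time), and was 0 to 1 on leaving out 1 array, the 1 being ZEB1 A_33_P3640690 without H1299 CTL replicate 1. Between the lines in the exposed groups, bystanders included, 0 became 1 with no filter (CDH1, below background on all arrays, in DBP) and was 0 to 1 on leaving out 1 array (SNAI1 in BP). The interaction was 0 to 1 (ZEB1 A_33_P3640690 in DBN, 1.19, without H1299 replicate 1). In H1299shRAD9 exposure 2 became 0 with no filter, 1 with slide as a block (ZEB1 in BP, which rests on 2 pairs), 5 with all 5 groups in 1 fit and 0 with no replicate block, and was 0 to 2 on leaving out 1 replicate. With a replicate block the line counts remained at 0. H1299 exposure gave 0 in each alternative run, including without the arrays that stood apart. Among the 26 differences of 187 that had an unadjusted p under 0.05, which were followed singly, 1 sign turned, in the ZEB2 A_33_P3243832 interaction for BN, from 0.49 to −0.0611 with normexp background correction. The cause was not tested. Scan day as a block or random block and leaving out the arrays that stood apart were chosen after seeing the data. Slide as a random block could not be fitted for lines in DBP, BP, DBN and BN, where 1 slide held 2 arrays of the comparison and the others 1 each, too few to estimate the correlation.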

Other observations

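Keratin 8 has 3 features, of which 2 separated by replicate number in every H1299shRAD9 group. On KRT8 A_23_P14072, the 10 arrays of replicates 1 and 2 lay at 7.10 to 7.59 and the 15 of replicates 3 to 5 at 5.58 to 6.32, separated in 5 of 5 groups, while in H1299 the same samples lay at 5.99 to 7.89 and 6.47 to 6.89. On KRT8 A_24_P67395 the H1299shRAD9 samples lay at 3.23 to 4.71 and 1.53 to 3.33, also separated within 5 of 5 groups, and on KRT8 A_33_P3372368 at 5.27 to 5.63 and 4.97 to 5.42, separated in 2 of 5. On KRT18 A_32_P151544 the H1299shRAD9 samples lay at 10.74 to 11.15 and 10.82 to 11.20. This was noticed after the values were seen, and no test was made.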
